A study of Mus musculus with 11 samples.

Results

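The genes described here encode the respiratory chain and ATP synthase of mitochondria, complexes I to V. They were chosen by gene symbol from the deposited count table, as every symbol of a subunit series (*Ndufa*, *Ndufb*, *Ndufc*, *Ndufs* and *Ndufv* with a number, *Sdha* to *Sdhd*, *Uqcr*, *Cyc1*, *Atp5* with a letter a to o, and *Cox* with a number from 4 to 8 and a letter a to c) or that belongs to a protein-coding gene of the mitochondrial genome (mt-). The rule gave 94 of 46603 genes, 81 nuclear and 13 mitochondrial, and 85 of them had enough reads to be tested. By symbol, the nuclear genes divided into 37 of complex I, 4 of complex II, 9 of complex III, 16 of complex IV and 15 of complex V. The mitochondrial genes divided into 7 of complex I, 1 of complex III, 3 of complex IV and 2 of complex V.

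Liver RNA was sequenced from male leptin-deficient *ob/ob* mice of the strain B6.V-Lep ob/JRj, 5 to 6 weeks old when the AMLN diet began, a diet rich in fat, fructose and cholesterol that leads to fibrotic steatohepatitis. All 11 mice were *ob/ob*, stayed on this diet and had a baseline liver biopsy. The bile acid analog INT-767, an agonist of the receptors FXR and TGR5, was given by gavage to 4 mice at 10 mg/kg once daily for 8 weeks, and 7 mice received the carboxymethyl cellulose vehicle. No lean or chow-fed group was among these samples, so each value is a comparison within obese, diet-fed mice.

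The respiratory chain passes electrons from NADH through complex I, or from succinate through complex II, to coenzyme Q, and on through complex III and cytochrome c to complex IV, where oxygen is reduced. Complexes I, III and IV pump protons across the inner membrane, and ATP synthase, complex V, uses their return to make ATP. All complexes except complex II combine subunits from both genomes, and hepatocytes, which are rich in mitochondria, use the chain to oxidise fatty acids.

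Libraries held between 7381211 and 16022459 counted reads, and the 2 groups overlapped in depth. Expression is given as CPM, a gene's reads relative to all reads of its liver, after scaling between libraries by the trimmed mean of M-values (TMM). Hepatocyte markers were abundant in every liver, with *Alb* the highest, and their summed level was between 57470 and 106400 CPM. Of the muscle markers, *Ckm*, *Myh4* and *Myl2* were at 0 in all 11 livers. Vehicle livers 1 and 7 and INT-767 liver 4 stood apart from the rest. Their 8 cholangiocyte markers summed to 1946, 1527 and 1369 CPM, against 376 to 882 CPM in the other 8 livers, with *Spp1* the most abundant. These 3 livers and INT-767 liver 2 were also the ones in which long transcripts read lower than short ones. The Spearman correlation across 13835 genes between transcript length and a liver's deviation from the mean was -0.19, -0.24, -0.32 and -0.30 in them, and between 0.094 and 0.32 in the other 7. The count of called genes is therefore also given without these livers. The same correlation with GC content was -0.064, -0.26, -0.16 and -0.24 in treated livers 1 to 4. It was -0.43 and -0.13 in vehicle livers 1 and 7 and between 0.013 and 0.44 in the other vehicle livers. Since this is bulk tissue, fewer cells of a type and less RNA per cell cannot be told apart.

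Respiratory chain transcripts were mostly higher in INT-767-treated livers, by a small amount, and few passed the test one by one. Of 85 tested genes, 83 had a fold change above 0, against 49.4% of the 13880 genes tested. The exceptions were *Sdha* and *Ndufa10*, neither of which differed beyond its error. Without a scaling factor beyond library size, 73 of 85 were above 0, on a scale where the median of all genes was -0.22, and *Ndufv1*, *Sdhc* and *Uqcrc1* were then among those below 0. On that scale 332 of all genes were called higher and 1026 lower, against 700 and 649 with TMM factors. At an adjusted *p* of 0.05 in edgeR's quasi-likelihood test, 7 were higher and 0 were lower. At an unadjusted *p* of 0.05, 60 were higher, or 70.6%, against 17.4% of all tested genes. The 7 genes, 8.24% of those tested, were *Sdhb*, *Ndufb6*, *Ndufb10*, *Ndufa8*, *Ndufb9*, *Atp5c1* and *mt-Co1*, against a background of 5.04% of all tested genes called higher and 4.68% called lower. All values of the INT-767 group lay above all vehicle values in 6 genes, *Sdhb*, *mt-Co1*, *Ndufb10*, *Ndufb7*, *Atp5a1* and *Atp5o*, or 7.06%, against 3.87% of all tested genes. In exact Mann-Whitney tests (two-sided) 26 of the 85 had an unadjusted *p* under 0.05, as did 23.5% of all tested genes, and none could pass adjustment, since the smallest *p* that 4 against 7 mice allow, 0.00606, became 0.0806.

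The median log2 fold change was 0.49 over the 76 tested nuclear genes and 0.68 over the 9 tested mitochondrial genes, while over all tested genes it was -0.01. With an offset for GC content and transcript length, described further on, the nuclear median was 0.28. The mitochondrial median was then -0.08, with 2 of 9 genes above 0. Over the 7 mitochondrial genes that hold 99.99% of mitochondrial reads it was -0.21. By complex the nuclear medians were 0.45 for complex I, 0.31 for complex II, 0.50 for complex III, 0.49 for complex IV and 0.58 for complex V. The spread between livers (pooled SD over mice) was 0.29 for the nuclear median and from 0.126 for complex II to 0.385 for complex III, and differences between complexes were not tested. The vehicle livers alone covered a range from -0.35 to 0.42 in the nuclear median, expressed as log2(CPM + 1) relative to the vehicle mean. The 4 INT-767-treated livers stood at 0.18, 0.76, 0.23 and 0.75. Livers 2 and 4 were thus above every vehicle liver, whereas livers 1 and 3 lay below vehicle livers 1 and 7.

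**Figure D1:**
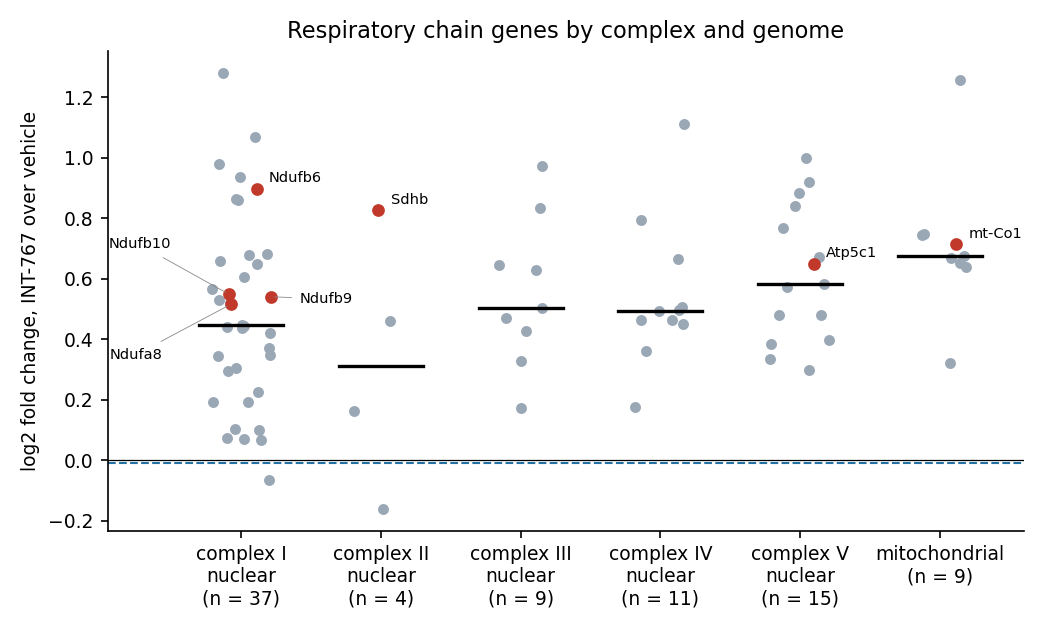
Log2 fold change of INT-767 over vehicle for each tested respiratory chain gene, one point per gene, by complex for nuclear genes and together for mitochondrial genes. Named red points passed the test, black bars are medians, and the dashed line is the median of all tested genes at -0.01; all but 2 points lie above 0.

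**Figure D2:**
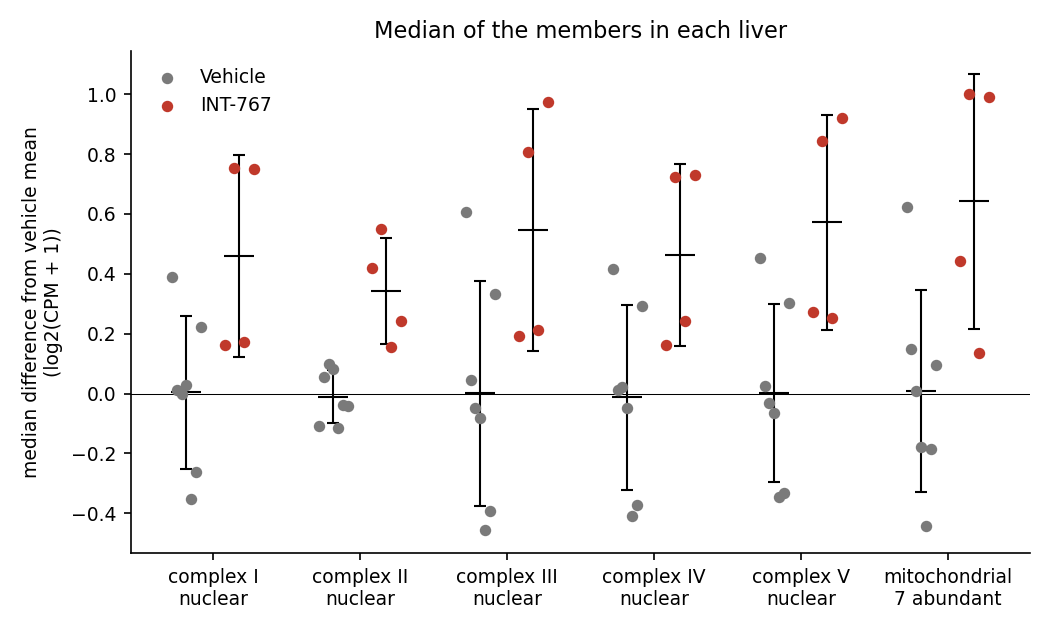
Median over the genes of each complex in every liver, as the difference from the vehicle mean in log2(CPM + 1); points are livers and bars are mean ± SD (7 vehicle, 4 INT-767). In complexes I, III, IV and V 2 treated livers sit high and 2 sit among the vehicle livers. The complex II median, over 4 genes, does not overlap between groups. Of these 4 genes *Sdhb* alone separates the groups, and *Sdha* has the other order of livers.

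The order of the livers was shared by most genes. Among vehicle livers, 60 of the 76 nuclear genes were highest in liver 1 or 7 and 67 were lowest in liver 5 or 6. Among treated livers, 70 were highest in liver 2 or 4. A smaller set ran the other way. *Ndufa9*, *Ndufa10*, *Ndufv1*, *Sdha*, *Sdhc* and *Uqcrc1* were lowest in vehicle liver 1 and also in treated liver 4. Across the 76 genes, fold change followed the spread among vehicle livers (Spearman 0.70, a description only, since both come from the same libraries). It did not follow transcript length (0.0089) and followed GC content weakly (-0.17). Over all tested genes these correlations were -0.24 for length and -0.30 for GC content. Vehicle livers 1 and 7 and treated livers 2 and 4 were also those in which long transcripts read lower than short ones. The nuclear members are short, with a median longest transcript of 1088 bases against 3310 over all tested genes. The part of this trend in the order of the livers was not tested.

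Which livers were included decided how many genes were called, and *Sdhb* alone was called without any one of the 11. Without vehicle liver 1 the count rose from 7 to 47, and without treated liver 1 or 3 it was 18 or 19. Without vehicle liver 2, 3, 4, 5 or 6 it fell to 3, 2, 1, 1 and 1, and without treated liver 2 or 4 to 1 and 2. Without vehicle liver 7 it was again 7, of which 5 were shared. The share of all tested genes called higher moved in the same direction from 5.04%. It was 13.7% without vehicle liver 1, 7.2% and 5.5% without treated liver 1 or 3, and 1.14% to 3.76% in the 7 cases in which the members' count fell. Without the 3 livers high in cholangiocyte markers, 46 genes were higher and 0 lower, including the 7 above, as were 14.3% of all tested genes, and the nuclear median was 0.54. Without the 4 livers with low reading of long transcripts, 10 were higher, including 5 of the 7, against 5.96% of all tested genes, and the nuclear median was 0.33.

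Complex I, the NADH dehydrogenase, had 4 called genes of 42 tested in both genomes, all accessory subunits. *Ndufb10* (chr17:24722060-24724478 on GRCm38) was 74.7 to 104 (median 93.2) CPM in vehicle livers and 125, 152, 112 and 136 CPM in INT-767 livers 1 to 4. Every treated liver was above every vehicle liver, and the log2 fold change was 0.55 ± 0.14, adjusted *p* = 0.0292. *Ndufb6* (chr4:40270591-40279421) read 29.1 to 62.6 (median 38.4) CPM in vehicle livers and 54.5, 97.0, 55.0 and 103 CPM in treated ones. Treated livers 1 and 3 lay below vehicle liver 1, although the fold change was the largest of the 4 (0.90 ± 0.25, adjusted *p* = 0.0394). Of its 75-base windows, 27.8% also occur in the transcript of *Smim27*, and 39.0% of its exon bases lie opposite exons of a gene on the other strand, so that part of its reads may belong elsewhere. For *Ndufa8* (chr2:36036326-36049406) the vehicle values were 72.6 to 107 (median 87.3) CPM and the treated values 126, 149.8, 104 and 129.8 CPM (0.52 ± 0.14, adjusted *p* = 0.0417). Only treated liver 3 fell within the vehicle range, below vehicle liver 3. *Ndufb9* (chr15:58933756-58939488) had 112 to 170.2 (median 142) CPM in vehicle livers and 178, 254, 168 and 213 CPM in treated livers (0.54 ± 0.16, adjusted *p* = 0.0487), again with treated liver 3 inside the vehicle range. For *Ndufb9*, 13.4% of such windows also occur in the transcript of *Gm49356*. The same limit holds for *Atp5g2* (35.8% of windows), *Atp5o* (34.2%), *Cox7c* (19.6%), *Ndufb4* (17.2%), *Uqcrb* (16.7%), *Ndufs3* (12.2%) and *Cox7a2l* (10.4%) among the nuclear genes named here, and exons on the other strand cover 35.6% of *Atp5o* and 12.8% of *Cox5a*.

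The catalytic core subunits of complex I named next were not called. *Ndufs1*, which carries iron-sulfur clusters, was 97.4 to 209 (median 119) CPM in vehicle and 158, 264, 169 and 229 CPM in treated livers (0.60 ± 0.22, adjusted *p* = 0.0893). *Ndufs7*, which holds the last cluster before coenzyme Q, went from 50.2 ± 7.78 CPM to 80.4 ± 27.0 CPM (mean ± SD, n = 7 and 4), with a log2 fold change of 0.68 ± 0.20, adjusted *p* = 0.0535. Neither passed the threshold. *Ndufv1*, which binds NADH, had a log2 fold change of 0.19 ± 0.15, adjusted *p* = 0.372. *Ndufa4*, placed here by its name although its protein is known as a subunit of complex IV, was 334 ± 160.3 CPM in vehicle and 608 ± 348 CPM in treated livers (0.87 ± 0.38, adjusted *p* = 0.136). Its paralog *Ndufa4l2* was far lower per length in vehicle livers, at 2.57 against 271 CPM per kilobase, and its log2 fold change was 0.07 ± 0.28, adjusted *p* = 0.869. Among genes singled out after their values were seen, *Ndufb4* had the largest fold change of the nuclear genes (1.28 ± 0.45, adjusted *p* = 0.0813) and *Ndufa10* the lowest of complex I (-0.06 ± 0.16, adjusted *p* = 0.782).

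Complex II, succinate dehydrogenase, is encoded by 4 nuclear genes, and differences between their fold changes were not tested. *Sdhb* (chr4:140961203-140979193), the iron-sulfur subunit, was the gene of the whole set with the smallest *p*. Its level was 119 to 159 (median 133) CPM in vehicle livers and 211, 308, 194 and 252 CPM in treated livers, so that the lowest treated liver was above the highest vehicle liver. The log2 fold change was 0.83 ± 0.15, adjusted *p* = 0.00736, and the exact two-sided Mann-Whitney *p* was 0.00606, or 0.0806 when adjusted over all tested genes. Its adjusted *p* was under 0.05 in 24 of 25 fits by edgeR, limma-voom or DESeq2, the exception being the replicate block (0.391). *Sdha*, the flavoprotein that oxidises succinate and partner of *Sdhb* in the matrix arm, was 240.5 to 427 (median 396) CPM in vehicle and 468, 281, 360.3 and 169 CPM in treated livers (-0.16 ± 0.26, adjusted *p* = 0.671). The treated range enclosed the vehicle range. Vehicle livers 1 and 7 and treated livers 2 and 4, high for most other genes, were the lowest of their groups. *Sdhc* and *Sdhd* anchor the complex in the membrane. *Sdhc* was 114 to 167 (median 147) CPM and 191, 172, 162 and 120.2 CPM (0.16 ± 0.16, adjusted *p* = 0.457), and *Sdhd* 153 to 277 (median 184) CPM and 198, 339, 208 and 316 CPM (0.46 ± 0.20, adjusted *p* = 0.136). Neither separated the groups.

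**Figure D3:**
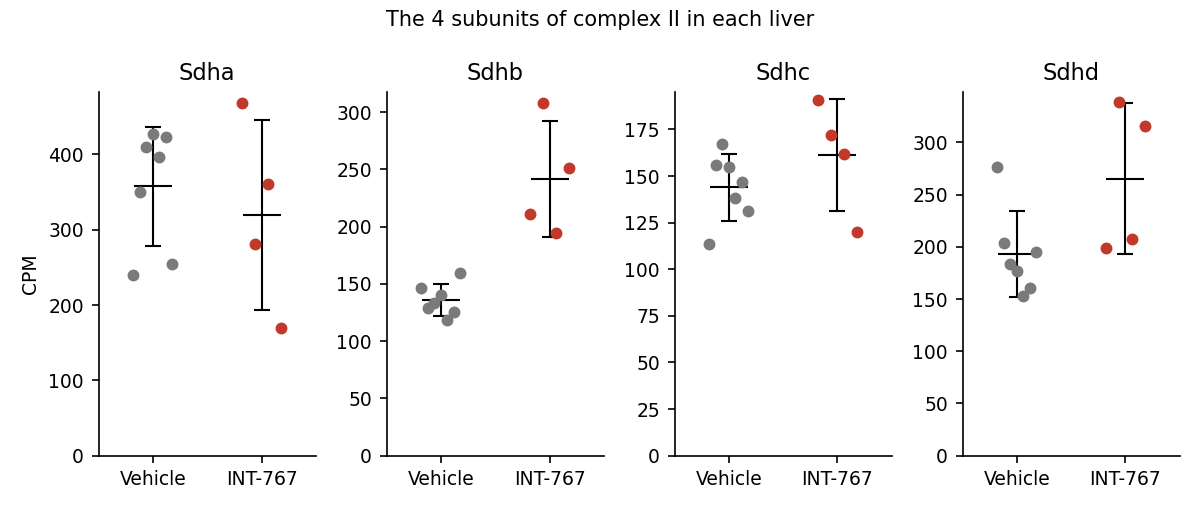
CPM of the 4 complex II genes in each liver, with mean ± SD (7 vehicle, 4 INT-767) and an axis from 0 in each panel. *Sdhb* is the one gene without overlap, 119 to 159 CPM in vehicle livers against 194 to 308 CPM in treated livers, while *Sdha* is lowest in treated liver 4.

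The nuclear promoters of these genes are shown for the 3 called genes that held a searched motif, since nuclear respiratory genes are known to share NRF1 and ETS sites near their starts. Each line gives 250 bases before the start and the first 20 of the transcript, from RefSeq on GRCm38.p6, 5′ to 3′ on the gene's strand, with capitals for a motif. The motifs were NRF1 (core GCATGCGC), ETS (CCGGAAG), the ERR motif (AAGGTCA), YY1 (AAGATGGC) and the inverted repeat IR-1 bound by FXR (2 copies of AGGTCA facing each other, 1 base apart), on both strands. *Sdhb* lies at chr4:140961021-140961290, plus strand, with an NRF1 core 54 bases before the start and an ETS motif 6 bases after it. *Ndufa8* lies at chr2:36049319-36049588, minus strand, with an NRF1 core 8 bases before the start. *Ndufb6* lies at chr4:40279402-40279671, minus strand, with an ETS motif 232 bases before it.
Sdhb: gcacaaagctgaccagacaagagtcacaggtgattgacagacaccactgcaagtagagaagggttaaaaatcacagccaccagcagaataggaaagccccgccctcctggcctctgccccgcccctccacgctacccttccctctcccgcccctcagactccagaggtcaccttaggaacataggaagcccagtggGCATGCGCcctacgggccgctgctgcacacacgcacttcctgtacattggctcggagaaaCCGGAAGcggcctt
Ndufa8: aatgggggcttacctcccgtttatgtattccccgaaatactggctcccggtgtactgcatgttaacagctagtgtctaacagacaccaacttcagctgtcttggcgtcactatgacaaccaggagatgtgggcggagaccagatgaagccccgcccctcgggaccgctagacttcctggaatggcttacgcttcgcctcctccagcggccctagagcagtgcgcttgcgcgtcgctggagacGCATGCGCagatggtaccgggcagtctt
Ndufb6: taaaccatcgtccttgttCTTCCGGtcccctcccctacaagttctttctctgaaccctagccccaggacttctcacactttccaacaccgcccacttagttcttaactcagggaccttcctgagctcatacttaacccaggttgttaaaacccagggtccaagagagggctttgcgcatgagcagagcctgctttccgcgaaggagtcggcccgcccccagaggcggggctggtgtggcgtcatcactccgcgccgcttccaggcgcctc

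A promoter was matched for 65 of the 81 nuclear genes, and the share with a motif in the full 300-base window was set beside that of all 32851 promoters. The NRF1 core was in 10 (15.4%, against 2.71% of all promoters), and ETS in 15 (23.1%, against 8.86%). YY1 was in 9 (13.8%, against 2.75%) and the ERR motif in 8 (12.3%, against 4.72%). The IR-1 was in 0 of them and in 3 of all promoters. The median log2 fold change was 0.59 in genes with the NRF1 core and 0.49 in those without, and 0.50 in both for ETS. For the ERR motif it was 0.71 with and 0.49 without, over 8 genes, and for YY1 0.42 with and 0.50 without, over 9 genes. No promoter motif of *Atp5c1* or *Ndufb10* was found, and *Ndufb9* was not matched. These matches describe the sequence, and binding was not measured.

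Complex III, which passes electrons from coenzyme Q to cytochrome c, had 10 tested genes, all with a fold change above 0 and 0 called. At an unadjusted *p* of 0.05, 5 of its 9 nuclear genes passed. The 3 nuclear genes with the smallest *p* were *Uqcrb*, *Uqcrh* and *Cyc1*. *Uqcrb* read 77.4 to 115 (median 97.9) CPM in vehicle and 122, 169, 107 and 150.4 CPM in treated livers (0.50 ± 0.16, adjusted *p* = 0.0641). With the offset for GC content and transcript length its log2 fold change was -0.30, and the other 8 nuclear genes stayed above 0. *Uqcrh*, the hinge protein, went from 162 ± 37.4 to 252 ± 75.6 CPM (0.64 ± 0.22, adjusted *p* = 0.0739). *Cyc1*, cytochrome c1, was 136 to 302 (median 169) CPM in vehicle livers and 194, 418, 232 and 699 CPM in treated livers (0.97 ± 0.34, adjusted *p* = 0.081), with liver 4 far above the others and livers 1 and 3 below vehicle livers 1 and 7. *Uqcrfs1*, the Rieske iron-sulfur protein, had a log2 fold change of 0.63 ± 0.24, adjusted *p* = 0.102. *Uqcrc1*, a core protein without a redox centre, had 0.17 ± 0.17, adjusted *p* = 0.474.

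Complex IV, cytochrome c oxidase, had 11 tested nuclear genes, all with a fold change above 0 and 0 called. With the offset 8 of the 11 were above 0, *Cox5a*, *Cox7a1* and *Cox7c* being the exceptions. *Cox5b* was 76.3 to 134 (median 106) CPM in vehicle and 136, 199, 124 and 209 CPM in treated livers (0.66 ± 0.20, adjusted *p* = 0.0529), just outside the threshold. *Cox5a* had a log2 fold change of 0.46 ± 0.18, adjusted *p* = 0.0997. Liver isoforms were far above muscle isoforms. *Cox6a1* was 351 CPM per kilobase in vehicle livers and the muscle form *Cox6a2* 0.211, and *Cox7a2* was 230.3 against 3.64 for *Cox7a1*. *Cox8b*, the muscle counterpart of *Cox8a*, had 6 reads in all 11 livers, and *Cox7b2* and *Cox8c* had 0, which allows up to 0.406 CPM in the shallowest liver (3 reads of its total). *Cox6a2*, *Cox6b2*, *Cox7b2*, *Cox8b* and *Cox8c* were too low to be tested. The liver isoforms had log2 fold changes of 0.46 ± 0.27, adjusted *p* = 0.234 for *Cox6a1*, 0.50 ± 0.18, adjusted *p* = 0.0855 for *Cox7a2* and 0.36 ± 0.21, adjusted *p* = 0.232 for *Cox8a*. *Cox7a2l* was 36.3 to 53.5 (median 43.4) CPM in vehicle and 52.5, 71.9, 54.4 and 59.5 CPM in treated livers (0.45 ± 0.15, adjusted *p* = 0.0736), with treated liver 1 within the vehicle range. *Cox7a1* had 0.18 ± 0.34, adjusted *p* = 0.728.

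Complex V, ATP synthase, had the highest nuclear median, 0.58, with all 15 genes above 0, also with the offset. *Atp5b* and *Atp5a1* varied least of all tested members among vehicle livers, with an SD of log2(CPM + 1) of 0.102 and 0.105. *Atp5a1*, the alpha subunit, was 746 to 922 (median 850.3) CPM in vehicle and 996, 1130, 998 and 1116 CPM in treated livers. The groups did not overlap, yet the fold change was small (0.33 ± 0.13, adjusted *p* = 0.0971). *Atp5b*, the beta subunit with the catalytic site and the highest nuclear gene per length at 532 CPM per kilobase, was 926 to 1104 (median 1021) and 1321, 1395, 1194 and 1100 CPM (0.30 ± 0.13, adjusted *p* = 0.139). *Atp5c1* (chr2:10056016-10080510), the gamma subunit that rotates within the head, was the called gene of this complex. Its level was 182 to 309.9 (median 222) CPM in vehicle and 314, 473, 281 and 370.4 CPM in treated livers (0.65 ± 0.18, adjusted *p* = 0.0424), with treated liver 3 below vehicle liver 1. The 3 genes for the membrane c-ring encode the same mature protein and differed in level and change. *Atp5g3* was the most abundant, at 477 CPM per kilobase, against 16.3 for *Atp5g1* and 23.1 for *Atp5g2*. The order of the last 2 depends on the length used, since the longest transcript of *Atp5g1* has 4715 bases and that of *Atp5g2* 753, and in CPM they were at 76.9 and 17.4. Their log2 fold changes were 0.40 ± 0.19, adjusted *p* = 0.156 for *Atp5g3*, 0.92 ± 0.27, adjusted *p* = 0.0519 for *Atp5g1* and 0.67 ± 0.26, adjusted *p* = 0.102 for *Atp5g2*. These differences between paralogs were not tested. *Atp5k*, the e subunit, had 0.84 ± 0.26, adjusted *p* = 0.0616. *Atp5l* held 319 reads in all livers, and 21 other genes share 75-base windows with it.

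The mitochondrial genome gave 13 genes in 2 ranges of abundance. *mt-Nd1*, *mt-Nd2*, *mt-Nd4*, *mt-Nd5*, *mt-Nd6*, *mt-Cytb* and *mt-Co1* held between 11395 and 299469 reads per liver. *mt-Co2*, *mt-Co3*, *mt-Atp6*, *mt-Atp8*, *mt-Nd3* and *mt-Nd4l* held at most 44, although the mitochondrial strands are transcribed as long precursors. These 6 genes lie together, from chrM:7013-10173. For 5 of them, between 97.8% and 99.9% of all 75-base windows, the length of the reads, also occur in annotated genes on chromosome 1 on GRCm38. For *mt-Co2* the run of identity with *Gm28661*, at chr1:24614885-24615565, was 681 of 684 bases, and for *mt-Co3* with *Gm28437* 783 of 784. Of the 7 abundant genes the shares were highest in *mt-Nd4* (61.5%) and *mt-Co1* (39.8%) and 0 in *mt-Nd1*, *mt-Nd6* and *mt-Cytb*. *mt-Atp8*, which starts between *mt-Co2* and *mt-Atp6*, was low with no window in another annotated transcript. Only annotated transcripts were searched, so a copy in unannotated sequence would not be seen. *Gm10925*, which matches *mt-Atp6*, lies at chr1:24613974-24614651, beside *Gm28661*, and unannotated bases between them were not searched. How multiply mapped reads were counted is not given in the sources used here, and its part in the low values was not tested. The first 75 bases of *mt-Co2*, at chrM:7013-7087 on the plus strand, show a read of this length that *Gm28661* holds without a mismatch, in lower case with nothing marked.
mt-Co2: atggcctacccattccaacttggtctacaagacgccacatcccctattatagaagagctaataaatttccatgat

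**Figure D4:**
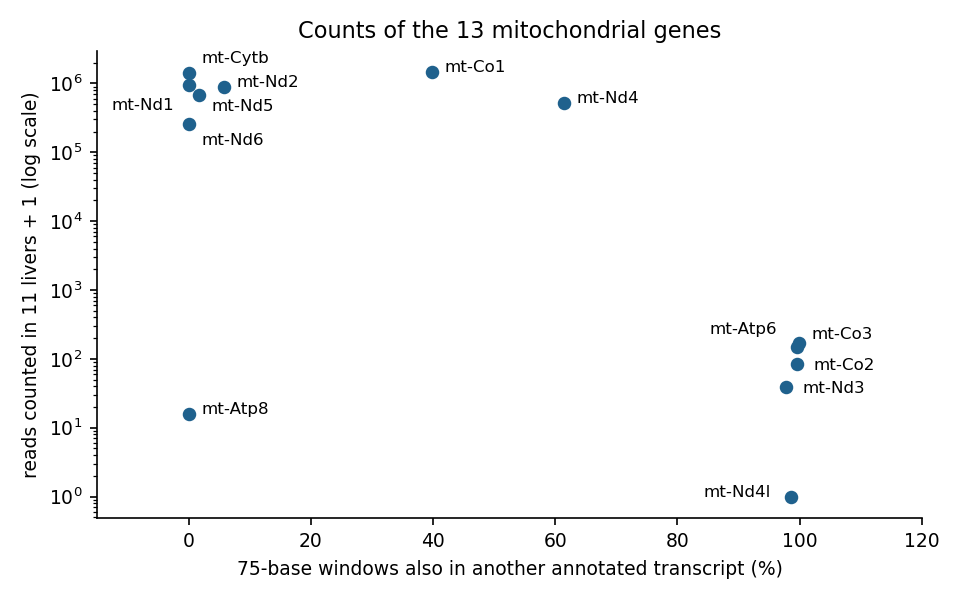
Reads counted over 11 livers for each of the 13 mitochondrial genes (log scale, 1 added) against the share of its 75-base windows that also occur in another annotated transcript. The 5 genes at the right, with shares from 97.8% to 99.9%, and *mt-Atp8* lie far below the 7 abundant genes. Bases outside annotated transcripts were not searched, which limits the share of 0 for *mt-Atp8*.

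Among the abundant mitochondrial genes, *mt-Co1* (chrM:5328-6872), the catalytic subunit of complex IV, was called. It read 7868 to 11760 (median 9607) CPM in vehicle livers and 16830, 21160, 12680 and 12660 CPM in treated livers, without overlap (0.71 ± 0.19, adjusted *p* = 0.0333). With the offset for GC content and transcript length it was not called, and the other 6 abundant genes were below 0, at log2 fold changes from -0.72 (*mt-Nd6*) to -0.04 (*mt-Nd5*). *mt-Nd1* was 4637 to 7935 (median 6188) CPM and 9229, 11060, 6646 and 12040 CPM (0.67 ± 0.20, adjusted *p* = 0.0503), with only treated liver 3 inside the vehicle range. *mt-Cytb*, the catalytic subunit of complex III from the same genome, was 6486 to 13600 (median 8303) CPM and 10770, 18960, 8766 and 22400 CPM (0.75 ± 0.28, adjusted *p* = 0.0908). Treated livers 1 and 3 overlapped with vehicle livers. The complex I genes had log2 fold changes of 0.64 ± 0.24, adjusted *p* = 0.101 for *mt-Nd2*, 0.65 ± 0.21, adjusted *p* = 0.0648 for *mt-Nd4* and 0.68 ± 0.26, adjusted *p* = 0.0999 for *mt-Nd5*. *mt-Nd6*, alone on the other strand, was the lowest at 0.32 ± 0.25, adjusted *p* = 0.373. Of the sparse genes, *mt-Co3* (0.74 ± 0.44, adjusted *p* = 0.237) and *mt-Atp6* (1.26 ± 0.52, adjusted *p* = 0.118) could be tested. *mt-Co2* had 48 reads over the 7 vehicle livers and 36 over the 4 treated livers, *mt-Nd3* 15 and 23, *mt-Atp8* 2 and 13, and *mt-Nd4l* 0 and 0.

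Shares of the raw library totals, which need no scaling, were also higher in treated livers 2 and 4 than in every vehicle liver. Nuclear members held 0.934% to 1.38% (median 1.04%) of reads in vehicle livers and 1.20%, 1.501%, 1.17% and 1.65% in treated livers 1 to 4. Mitochondrial members held 3.35% to 5.74% (median 4.14%) and 5.59%, 6.87%, 4.43% and 6.63%. Group means were 1.12% ± 0.17 and 1.38% ± 0.24 for nuclear genes, and 4.27% ± 0.79 and 5.88% ± 1.1 for mitochondrial genes (SD, n = 7 and 4). The groups overlapped in both shares, and exact 95% Clopper-Pearson intervals, which cover counting error only, were at most 0.0081 and 0.017 percentage points to either side. The ratio of mitochondrial to nuclear reads was 3.405 to 4.33 in vehicle livers and 4.66, 4.58, 3.79 and 4.01 in treated livers, with means of 3.80 ± 0.37 and 4.26 ± 0.42.

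GC content and transcript length separated the 2 genomes in what a correction did. Mitochondrial members had a median GC content of 37.1%, and 203 of 13835 genes were at or under it. Nuclear members had 50.2%, near the 49.4% of all tested genes, but were short, with a median longest transcript of 1088 bases against 3310. After an offset that removed each liver's trend on both properties, the nuclear median was 0.28 with 65 of 76 genes above 0. The mitochondrial median was then -0.08 with 2 of 9 above 0, and over the 7 abundant genes it was -0.21 with 1 above 0. Then 9 members were called, all nuclear: *Sdhb*, *Ndufb6* and *Atp5c1* as before, and *Atp5a1*, *Atp5g1*, *Atp5k*, *Cox5b*, *Ndufs3* and *Ndufs7*. Of all tested genes 7.71% were then called higher, against 5.04% without the offset. The log2 fold change of *Sdhb* was then 0.68, and that of *mt-Co1* 0.12 (adjusted *p* = 0.786).

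**Figure D5:**
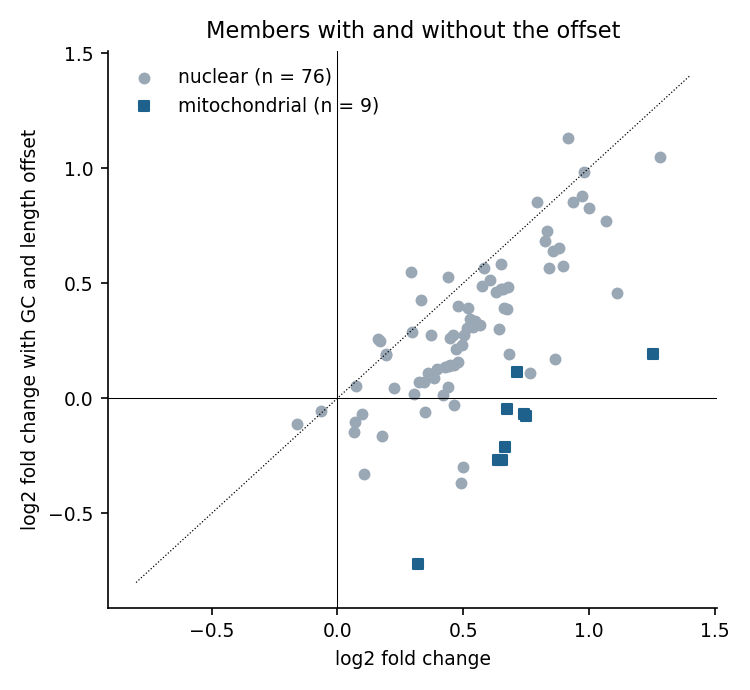
Log2 fold change of each tested gene without (x axis) and with (y axis) the offset for GC content and transcript length; grey circles are nuclear and blue squares mitochondrial genes, and the dotted line marks equal values. The 76 nuclear genes move from a median of 0.49 to 0.28, and the 9 mitochondrial genes from 0.68 to -0.08.

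Few genes of other mitochondrial lists were called, each time higher apart from *Ucp2*, and the counts stand against 5.04% of all tested genes called higher and 4.68% called lower. Of 8 tested subunits and carriers outside the name rule, 0 were called, with a median log2 fold change of 0.49 (0.27 with the offset). They include *Cox4i1*, a nuclear-encoded regulatory subunit of complex IV (0.50 ± 0.23, adjusted *p* = 0.144), and *Cycs*, cytochrome c (0.86 ± 0.31, adjusted *p* = 0.0893). Among assembly factors, 1 of 14 was called higher for complex I, *Ndufaf4* (0.68 ± 0.18, adjusted *p* = 0.0352), 1 of 4 for complex II, *Sdhaf3* (0.96 ± 0.28, adjusted *p* = 0.0476), and 1 of 6 for complex III, *Uqcc1* (0.40 ± 0.11, adjusted *p* = 0.0376). *Sdhaf3* helps insert the iron-sulfur clusters of the *Sdhb* protein. For complex IV 0 of 19 and for complex V 0 of 3 were called, with medians of 0.34 and 0.26. With the offset these medians were 0.19 and 0.08. None of these lists had a gene called lower.

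The citric acid cycle had 1 of 13 called higher, *Idh3b* (0.45 ± 0.12, adjusted *p* = 0.0362), and a median of 0.35 (0.11 with the offset). Of the 76 mitochondrial ribosomal protein genes tested, 68 were above 0, with a median of 0.33 (0.19 with the offset). Among them 1 was called, *Mrpl1* (0.69 ± 0.20, adjusted *p* = 0.046). Import and outer membrane genes had 2 of 15, the channel *Vdac1* (0.51 ± 0.13, adjusted *p* = 0.0276) and the translocase *Timm50* (0.73 ± 0.21, adjusted *p* = 0.045). Coenzyme Q synthesis had 1 of 13, *Adck3* (0.82 ± 0.24, adjusted *p* = 0.0487), with a median of 0.16. Of the genes that copy and transcribe mitochondrial DNA, 0 of 17 were called, with a median of 0.33 (0.18 with the offset). *Tfam*, which packages that DNA, had 0.71 ± 0.26, adjusted *p* = 0.0931. The mitochondrial ribosomal RNAs were not found by name in the table. Of 4 tested uncoupling proteins and carriers 1 was called, with a median of -0.12 (-0.20 with the offset). *Ucp2* fell, from 55.3 to 94.0 (median 83.2) CPM to 30.7, 27.4, 37.2 and 46.5 CPM without overlap (-1.11 ± 0.20, adjusted *p* = 0.00764). *Ucp2* is known to be abundant in macrophages, and the part of these cells in its fall was not tested. The summed macrophage markers given further on were 616, 561, 548 and 1186 CPM in treated livers 1 to 4. Of the genes called in these lists and among the assembly factors, *Ucp2* was called in all 11 fits without 1 liver. *Vdac1* was called in 7 of them, *Idh3b*, *Mrpl1* and *Timm50* in 4, *Ndufaf4*, *Sdhaf3* and *Adck3* in 3, and *Uqcc1* in 2. With the offset for GC content and transcript length, *Ndufaf4*, *Uqcc1* and *Idh3b* were not called (adjusted *p* = 0.257, 0.143 and 0.0587), and the others were.

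Of 12 tested regulators of respiratory genes 2 were called higher and 0 lower, 7 were above 0, and the median was 0.25. *Ppargc1a*, the coactivator of mitochondrial biogenesis, was 11.6 to 18.1 (median 15.2) CPM in vehicle livers and 23.0, 28.1, 31.5 and 30.7 CPM in treated livers. All treated livers were above all vehicle livers (0.93 ± 0.15, adjusted *p* = 0.00496), and the call was kept without any one liver. *Sirt3*, the mitochondrial deacetylase, was 51.0 to 92.3 (median 59.4) and 75.7, 172, 93.2 and 277 CPM (1.21 ± 0.31, adjusted *p* = 0.0336), with liver 4 far above the rest and liver 1 within the vehicle range. The call of *Sirt3* was kept in 4 of the 11 fits without 1 liver. *Esrra*, which encodes the receptor ERR alpha, had 0.79 ± 0.26, adjusted *p* = 0.0731, and *Gabpa*, an ETS factor, had 0.48 ± 0.14, adjusted *p* = 0.051 with no overlap between groups. *Nrf1* had -0.08 ± 0.18, adjusted *p* = 0.782. The lowest values, chosen after they were seen, were those of the coactivators *Ppargc1b* (-1.23 ± 0.82, adjusted *p* = 0.297) and *Pprc1* (-0.99 ± 0.47, adjusted *p* = 0.162) and of the receptor *Ppara* (-0.61 ± 0.46, adjusted *p* = 0.344), none of which passed the test.

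Some markers of macrophages and stellate cells were lower in treated livers, against 4.68% of all tested genes. Of 10 macrophage markers 3 were lower (*Cd68*, *Csf1r*, *Ctss*), with a median log2 fold change of -0.92, and the summed level of all 10 went from 1016 ± 143 to 728 ± 307 CPM, *Lyz2* being the most abundant. This sum was 616, 561 and 548 CPM in treated livers 1 to 3. In treated liver 4, one of the livers that stood apart, it was 1186 CPM, above the highest vehicle liver at 1173 CPM. Of 10 stellate cell and myofibroblast markers 3 were lower (*Col1a1*, *Col1a2*, *Pdgfrb*), with a median of -0.79 and sums of 817 ± 411 and 298 ± 101 CPM, led by *Col3a1*. Endothelial markers had 1 lower of 10 (*Vwf*; median -0.31, sums 292 ± 71.1 and 224 ± 39.0 CPM, led by *Ptprb*). Cholangiocyte and lymphocyte markers had 0 called of 8 and of 7, with medians of -0.62 and -0.42, and sums of 1090 ± 460 and 794 ± 426 CPM and of 43.5 ± 11.5 and 32.2 ± 10.9 CPM. *Ptprc* led the lymphocyte list. Hepatocyte markers had 0 called of 9, a median of 0.22 and sums of 66360 ± 6283 and 89440 ± 21210 CPM. The hepatocyte sum was 102000, 106400, 90100 and 59340 CPM in treated livers 1 to 4, against 57470 to 77410 CPM in vehicle livers. Of the adipocyte list, *Plin4*, *Cidea* and *Cidec*, which fatty hepatocytes also express, were lower (median -2.08), with sums of 417 ± 173 and 125 ± 57.2 CPM, led by *Plin4*. *Retn* and *Ucp1* of this list were at 0 in every liver. *Adipoq* and *Lep* were at 0 in all vehicle livers and in treated livers 1 and 3, at 0.138 and 0 CPM in treated liver 2, and at 3.37 and 4.79 CPM in treated liver 4. Of 10 muscle markers 1 could be tested, *Mylpf*, which was not called, and the sums were 1.26 ± 0.39 and 1.36 ± 0.37 CPM. The part of these cell types in the respiratory chain values was not tested.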

How the data were processed

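Liver RNA of 11 mice, 7 given vehicle and 4 given INT-767, was compared as grouped by the sample labels. The authors deposited 1 table of raw read counts per gene, with no normalization, made from stranded poly(A) libraries sequenced for 75 cycles. Reads were aligned to GRCm38 with STAR. The supplementary methods and the submitters' processing notes name different STAR versions (2.4.0 in the notes), and Ensembl release 84 was the annotation. The counting program, its strand setting and its handling of multiply mapped reads are, in the sources used here, not given.

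Counts were tested in R 4.3.3 with edgeR 4.0.16 (TMM factors, filterByExpr at its defaults, 10 reads at the median library size and 15 in total, glmQLFit robust, glmQLFTest), on 13880 genes with treatment as the only term. Benjamini-Hochberg adjustment covered all tested genes, and the threshold was 0.05. Fold changes are log2, INT-767 over vehicle, ± SE from the quasi-likelihood F statistic. Exact Mann-Whitney tests enumerated the 330 assignments of 4 of 11 mice. Members of a complex received no test as a list and are given by counts and medians beside all genes. CPM per kilobase divides by the longest transcript in GENCODE M21 (GRCm38), which also gave coordinates, GC content and shared windows of 75 bases.

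Alternatives were other scaling factors, 2 filters, a replicate block, limma-voom (limma 3.58.1) with and without sample weights, DESeq2 1.42.0, a GC content and length offset (lowess span 0.3), a threshold of 0.01, other denominators and leaving out each mouse. Leaving out the livers that stood apart was added after seeing the data. Scripts were tested on simulated data. Genes were named by rule: all mitochondrial genes, complex II, called genes of the other complexes or their 3 smallest *p*, listed core subunits and isoform sets (some values are not reported here), and up to 3 called genes of each other list. The members, lists and rule were chosen with earlier results of these data known. Floors are 3 counts of a library. The mice are separate animals, and no batch is given for them.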

Additional observations from a re-analysis of the deposited data

Results flagged for a closer look

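Each of 92 sets of values, a gene or a share within a group, was checked for a single liver far from the rest, which chance alone flags in about 1 of 20 sets, and 3 stood out. *Ndufa4l2* was 4.46 CPM in vehicle liver 3 against 2.43 CPM in the next highest vehicle liver. *Sdhd* was 277 CPM in vehicle liver 1 against 203.9 CPM. *mt-Nd6* was 3307 CPM in vehicle liver 1 against 2107 CPM. Vehicle liver 1 is also among the livers that stood apart by cholangiocyte markers and by the trend on transcript length.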

How the results depend on the processing

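With 4 against 7 mice, the number of genes called depended on the test and on single livers, whereas the sign of the medians by complex and genome turned in 1 case. Of 168 medians by complex and genome recomputed under alternatives, 166 moved by less than the spread between livers. The exceptions were complex II at 0.10 with library size only, and the mitochondrial median at -0.077 with the GC content and length offset. Against 7 members called higher, of 700 among all genes, there was 1 with library size only (332 of all genes), 3 with upper-quartile factors (467), 29 with limma-voom and sample weights (1626), 32 with DESeq2 (1443), 1 at an adjusted *p* of 0.01 (158), and 46 without the 3 livers high in cholangiocyte markers (1968). Leaving out 1 mouse at a time gave 1 to 47 (164 to 1906). No alternative called a member lower. The share differences between groups kept their direction under each denominator and without any mouse.

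Whether equal mouse numbers in the 2 groups mark a pairing is not given in the labels. Same-numbered mice had correlations of -0.73, 0.24, 0.21 and -0.52 in their deviations. Differently numbered mice had values from -0.68 (vehicle liver 7 with treated liver 1) to 0.75 (vehicle liver 1 with treated liver 4). These correlations cannot decide the question, since large values of both signs occur between mice of unlike number. With the number as a replicate block 0 genes were called, among members and among all genes. At an unadjusted *p* of 0.05 there was 1 member, and the nuclear median was 0.38. Vehicle livers 5, 6 and 7 have no treated liver of their number and add nothing to the treatment estimate of this fit. Its 0 calls therefore cannot be read as absence of a difference. Under this block *Cox7a1* was at -0.10.

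Of 1447 single-gene fold changes recomputed for 58 genes, 29 turned sign, in 16 genes. With the offset, the log2 values were -0.029 for *Cox5a*, -0.16 for *Cox7a1*, -0.10 for *Ndufa4l2*, -0.30 for *Uqcrb*, -0.069 for *mt-Co3*, -0.077 for *mt-Cytb*, -0.21 for *mt-Nd1*, -0.27 for *mt-Nd2*, -0.27 for *mt-Nd4*, -0.044 for *mt-Nd5* and -0.72 for *mt-Nd6*. With library size only they were -0.056 for *Cox7a1*, -0.15 for *Ndufa4l2*, -0.011 for *Ndufv1*, -0.037 for *Sdhc* and -0.034 for *Uqcrc1*. Upper-quartile factors gave -0.014 for *Ndufa4l2*, and sample weights -0.12 for *Cox7a1* and -0.041 for *Ndufa4l2*. Without the livers high in cholangiocyte markers *Cox7a1* was -0.19 and *Ndufa4l2* -0.25. Without the livers low in long transcripts they were -0.38 and -0.14, and *Sdha* was 0.053. Leaving out 1 mouse gave -0.37 to 0.38 for *Cox7a1*, -0.17 to 0.25 for *Ndufa4l2*, -0.40 to 0.044 for *Sdha* and -0.19 to 0.018 for *Nrf1*. The cause was not tested.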
